A study of Mus musculus with 11 samples.

Results

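The genes that govern passage from G1 into S phase of the cell cycle were examined in primary mouse hippocampal cultures given a synthetic miR-181a-5p. They were 10 genes, chosen by name from the 48709 genes of the count tables: the D-type cyclin genes Ccnd1, Ccnd2 and Ccnd3, the kinase genes Cdk4 and Cdk6, the E-type cyclin gene Ccne1, the pocket protein gene Rb1, the transcription factor gene E2f1, and the CDK inhibitor genes Cdkn1b and Cdkn1c. The rule itself uses names and no measured value, and 10 of the 10 had enough counts to be tested.

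Hippocampi of CD1 mouse embryos at E17 were pooled, dissociated and grown in medium that sustains neurons, and such cultures also hold glial cells. At day 10 in vitro (DIV10) the cells received lipid nanoparticles (LNPs) loaded with the miR-181a-5p mimic in 5 samples and with a negative control RNA in the other 6. Both groups also received ApoE4, a lipoprotein component, together with the particles. RNA was taken 48 h later, at DIV12, and poly(A) RNA was sequenced. The sources used here do not state whether the samples of a group came from separate dissections, so the p-values measure the spread between these samples, which may be technical.

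Cyclin D binds CDK4 or CDK6, and the active kinase phosphorylates the retinoblastoma protein RB. RB that has been phosphorylated releases E2F transcription factors, which turn on cyclin E and the genes of DNA replication. Inhibitors of the INK4 family block CDK4 and CDK6, and those of the Cip/Kip family, to which the products of Cdkn1b (p27) and Cdkn1c (p57) belong, bind cyclin-CDK complexes more widely. Mature neurons have left the cell cycle, while glia and other dividing cells of a hippocampal culture can still pass through it, and several of these genes are also known to be expressed in neurons that do not divide.

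The 2 RNAs loaded into the particles are shown because the comparison rests on them. A microRNA recognises messenger RNAs mainly through its seed, bases 2 to 8, which is in capitals.
miR-181a-5p mimic: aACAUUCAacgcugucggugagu
negative control: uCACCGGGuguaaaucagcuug
The mimic had the sequence of the mature mouse miR-181a-5p in RefSeq, which is encoded at chr1:137966468-137966490 and at chr2:38852741-38852763 (GRCm38.p6, plus strand at both). The DNA word that pairs with the whole seed is TGAATGT, and that for the control is CCCGGTG.

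The seed word was then searched in the 3′ UTRs of the 10 genes (GENCODE M21, GRCm38). When the longest 3′ UTR was taken for every gene, the word TGAATGT was found in 1 of the 10, Cdk6, against 2792 of the 14506 tested genes with a 3′ UTR (19.2%). E2f1 and Cdkn1b held the shorter word GAATGT, which pairs with bases 2 to 7, once each, and Cdk6 held it at 2 further places. The other 7 genes had neither word there, as was the case for 8910 of the 14506 genes (61.4%). Ccne1 held TGAATGT in a 3′ UTR of 236 bases that belongs to 1 of its 2 transcripts with a 3′ UTR and is not the longest. This Ccne1 site lies near the start of the gene (base 38107534, minus strand) and far from its end (base 38097984). The control word was in none of the longest 3′ UTRs of the 10 genes. For each of the 4 genes the site with the longest match is printed, with 8 bases on each side, read along the transcript, with the word in capitals.
Cdk6, chr5:3530336-3530342, plus strand: tccaagggTGAATGTgacgtatc
Ccne1, chr7:38106462-38106468, minus strand, shorter 3′ UTR: cctttagtTGAATGTcgttcatg
E2f1, chr2:154559577-154559582, minus strand: gttggaggGAATGTtcactccc
Cdkn1b, chr6:134923892-134923897, plus strand: gcattttaGAATGTttggcatt
The site of Cdk6 lay at base 9545 of a 3′ UTR of 10217 bases. Of the transcripts with a 3′ UTR, the printed site was in 1 of 2 for Cdk6, 1 of 2 for E2f1 and 1 of 3 for Cdkn1b. None of the 10 genes was on the list of predicted miR-181a-5p targets used in the study. Ccne1 and Cdkn1b were on its list for miR-148a-3p, which was not added here. A match of letters is a description and not a shown target site.

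Library sizes lay between 17287168 and 48091231 counts, with control replicate 1 deepest and the next sample at 28934923. Levels are given as CPM, which are counts scaled by TMM factors to a common library size, in which the 3 counts that a count of 0 allows amount to 0.0624 to 0.174 CPM depending on the sample. Of 17365 genes tested with edgeR's quasi-likelihood test, 495 were called at an adjusted p under 0.05, of which 307 were lower and 188 higher in mimic samples. The neuron markers fixed as a check of the cell type were high, for example Map2 at 2579 to 2640 CPM and Tubb3 at 786 to 845 CPM in control samples. Astrocyte markers were also high, with Slc1a2 at 2302 to 2514 CPM. Of the endothelial markers, Cldn5 and Ly6c1 were at 0 in all mimic samples and at most 0.0694 CPM in control samples, while Kdr was at 30.8 to 38.0 CPM and Cdh5 at 1.00 to 2.15 CPM in control samples.

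None of the 10 G1 genes was called, in either direction, against 2.85% of all tested genes (1.08% higher and 1.77% lower). DESeq2 also called 0 of them, against 3.25% of all tested genes. At an unadjusted p under 0.05 edgeR had 2 of the 10, Cdk4 and Cdkn1c, both higher in mimic samples, against 15.7% of all genes in either direction and 7.30% in the higher one. The log2 fold change of mimic against control was above 0 in 9 of the 10, with Ccne1 the exception, against 49.9% of all genes. Its median over the 10 was 0.073, and over all genes it was -0.00015. For 0 of the 10 did the ranges of the groups lie apart, which was the case for 2.89% of all genes. In bulk RNA fewer cells of a type and less RNA per cell cannot be told apart, so each level below is an average over every cell in the dish.

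Levels per kilobase of exon placed the 10 genes over a wide range, in the same order in both groups. Ccnd2 stood first, at 54.8 ± 0.891 CPM per kilobase in control samples (SD, n = 6). Cdkn1b followed at 25.2 ± 1.34, Cdk4 at 19.3 ± 0.237, Ccnd1 at 12.3 ± 0.676 and Rb1 at 10.2 ± 0.498 CPM per kilobase. These 5 highest genes did not overlap in range with their neighbours in the order.
E2f1 had 3.98 ± 0.342 CPM per kilobase. Ccne1, at 2.52 ± 0.222, and Ccnd3, at 2.37 ± 0.139, were the only neighbours whose ranges overlapped, in both groups. Cdk6 was at 0.538 ± 0.0275 and Cdkn1c last, at 0.141 ± 0.0801 CPM per kilobase. The exon length used is the union over annotated transcripts, so a gene whose long exons are little used, such as one with a long 3′ UTR, is placed too low.

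**Figure D1:**
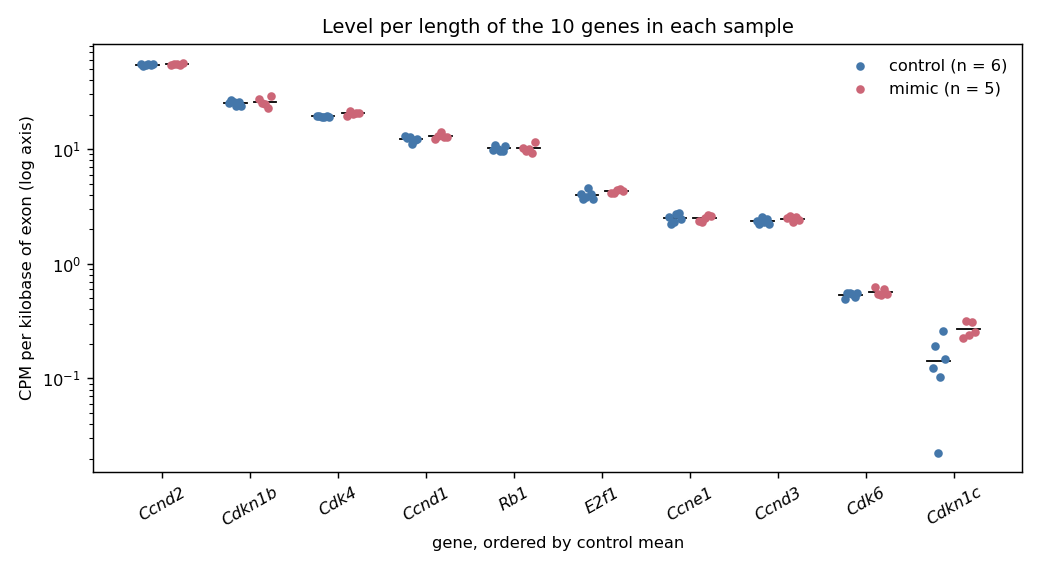
Level of the 10 genes in CPM per kilobase of exon (log axis), each point a sample, 6 control and 5 mimic, and each line a group mean. The genes are ordered by their control mean, from Ccnd2 at 54.8 to Cdkn1c at 0.141 CPM per kilobase, and the points of both groups overlap for every gene.

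Among the D-type cyclins, Ccnd2 supplied most of the transcripts. Per length it made up 78.9% ± 0.946 of the 3 genes in control samples and 78.2% ± 0.693 in mimic samples (SD, n = 6 and 5). Ccnd1, the cyclin most often linked to growth factor signals, made up 17.7% ± 0.912 and 18.3% ± 0.803. Ccnd3 made up 3.41% ± 0.195 and 3.50% ± 0.191.

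Ccnd2 (ENSMUSG00000000184, chr6:127125162-127152193, minus strand, GRCm38) encodes the D-type cyclin known for its role in neural progenitors. Its level in control samples was lowest at 501 CPM, with a median of 517 and a highest value of 525. The mimic samples had 515, 523, 525, 516 and 527 CPM. The groups overlapped almost wholly, since 1 mimic sample lay above the control range and none below it. Control samples averaged 515.3 ± 8.38 CPM and mimic samples 521.0 ± 5.58 CPM, and the log2 fold change was 0.016 (SE 0.022, 95% interval -0.029 to 0.061, adjusted p = 0.816). It was the narrowest interval of the 10 genes, at 8808 to 24716 counts per sample. With 1 sample left out the log2 fold change ran from 0.014 to 0.027.

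Ccnd1 (ENSMUSG00000070348, chr7:144929931-144939925, minus strand) lay between 52.4 and 61.8 CPM in control samples, with a median of 58.5. The mimic samples had 57.6, 61.3, 67.0, 59.9 and 59.5 CPM. Mimic replicate 3 was the highest of the 11 samples, and the other 4 mimic samples lay inside the control range. Mimic against control, this was a log2 fold change of 0.071 (SE 0.040, 95% interval -0.011 to 0.15, adjusted p = 0.417). It was 0.044 without mimic replicate 3 and 0.095 without control replicate 1.

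Ccnd3 (ENSMUSG00000034165, chr17:47505051-47599691, plus strand) encodes the D-type cyclin best known from lymphoid cells. It lay between 19.6 and 22.7 CPM in control samples and between 20.5 and 22.9 CPM in mimic samples. Each of the 5 mimic samples was above the control median of 20.5 CPM, but 4 of them were inside the control range. Its log2 fold change was 0.074 (SE 0.047, 95% interval -0.023 to 0.17, adjusted p = 0.502).

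Of the 2 cyclin D kinases, Cdk4 was by far the more abundant. Per length it made up 97.3% ± 0.158 of the sum of Cdk4 and Cdk6 in control samples and 97.3% ± 0.273 in mimic samples. The exon length of Cdk6 is 13989 bases and its longest 3′ UTR 10217 bases, so its share may be too low. Not scaled by length, Cdk6 averaged 7.52 CPM in control samples. Cdk4 averaged 62.7 ± 0.770 CPM in control samples against 66.8 ± 2.75 CPM with the mimic, a difference of 1.07-fold that did not pass the test.

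Cdk4 (ENSMUSG00000006728, chr10:127063534-127067920, plus strand) spanned a narrow range in control samples, from 61.6 to 63.5 CPM with a median of 62.8. The mimic samples had 63.0, 70.6, 66.1, 67.2 and 66.9 CPM. Only mimic replicate 1 fell inside the control range, and the other 4 lay above it. Its log2 fold change was 0.093 (SE 0.031, 95% interval 0.030 to 0.16), with an unadjusted p of 0.00554 and an adjusted p of 0.106 in edgeR. DESeq2 gave an adjusted p of 0.0900. Over the 20 alternatives the adjusted p ran from 0.0485 without mimic replicate 1, where Cdk4 was called with a log2 fold change of 0.11, to 0.322 without mimic replicate 2, where it was 0.071. The last part of Cdk4 overlaps Tspan31 on the other strand, and since the library kit does not mark strand, reads from the shared stretch cannot be assigned to either gene. Tested genes on the other strand also overlap Ccnd1 (LTO1), Ccnd2 (9330179D12Rik), Ccnd3 (Bysl), Cdk6 (Gm17590) and Rb1 (Rcbtb2 and Lpar6). The same limit holds there for any exons that are shared.

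Cdk6 (ENSMUSG00000040274, chr5:3341485-3531008, plus strand) encodes the sister kinase and was the only gene of the 10 with the whole seed word in its longest 3′ UTR. It was at 6.87 to 7.83 CPM in control samples, and the mimic samples had 8.77, 7.67, 7.41, 8.40 and 7.67 CPM. Mimic replicates 1 and 4 were above the control range and the other 3 were inside it. For Cdk6 the log2 fold change was 0.097 (SE 0.067, 95% interval -0.041 to 0.24, adjusted p = 0.551). The lower bound of the interval is a level 0.972 times that of the control samples. The log2 fold change of Cdk6 was 0.060 without control replicate 1 and 0.12 without mimic replicate 3.

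Ccne1 (ENSMUSG00000002068, chr7:38097984-38107534, minus strand) encodes cyclin E1, the partner of CDK2 that acts after cyclin D. It lay between 5.87 and 7.35 CPM in control samples and between 6.19 and 7.09 CPM in mimic samples, so the mimic values were all inside the control range. It was the gene of the 10 with a negative estimate, a log2 fold change of -0.012 (SE 0.074, 95% interval -0.16 to 0.14, adjusted p = 0.966). The sign of that estimate turned when single samples were left out, between -0.037 without control replicate 2 and 0.021 without control replicate 4.

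Rb1 (ENSMUSG00000022105, chr14:73183673-73325822, minus strand), the gene of the retinoblastoma protein, averaged 61.1 ± 3.00 CPM in control samples against 61.5 ± 5.36 CPM with the mimic. The mimic samples spread more widely, at 62.0, 58.3, 60.7, 56.2 and 70.2 CPM, around a control range of 58.5 to 65.2 CPM. Mimic replicate 5 lay above that range and mimic replicates 2 and 4 below it. Its log2 fold change was 0.0062 (SE 0.047, 95% interval -0.092 to 0.10, adjusted p = 0.973). It was -0.043 without mimic replicate 5, and also below 0 without control replicate 1, 4 or 5.

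E2f1 (ENSMUSG00000027490, chr2:154559407-154569892, minus strand) encodes the activating E2F factor that RB holds in check. Its control samples ran from 11.5 to 14.4 CPM with a median of 12.4, and the mimic samples had 12.98, 13.06, 14.01, 14.10 and 13.69 CPM. All 5 mimic samples were above the control median and all were inside the control range, the top of which was set by control replicate 4. Its log2 fold change was 0.10 (SE 0.059, 95% interval -0.017 to 0.23, adjusted p = 0.418). Without control replicate 4 it was 0.16, at an adjusted p of 0.163.

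**Figure D2:**
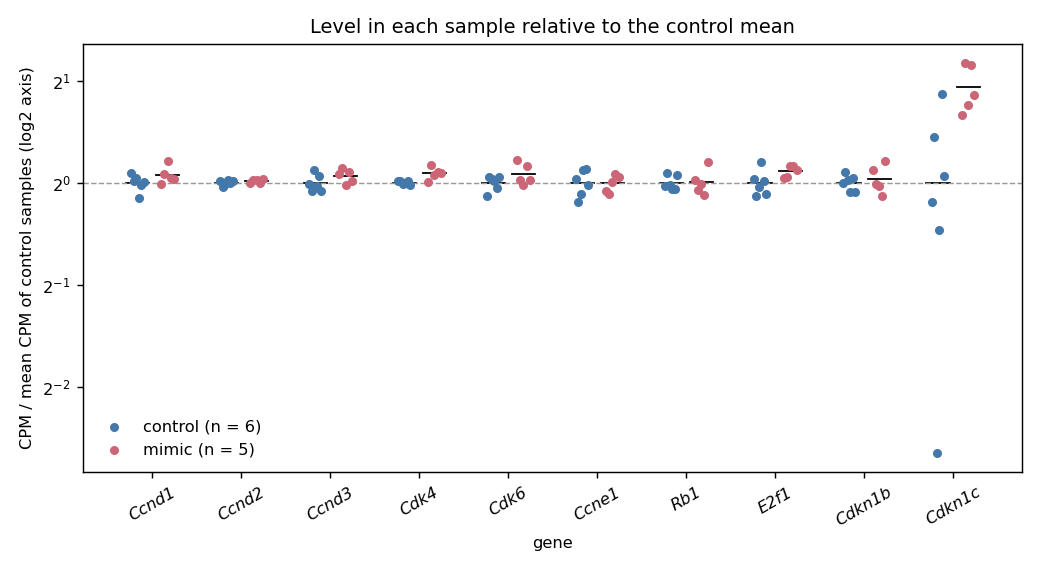
Level of each of the 10 genes in every sample, as CPM divided by the mean CPM of the 6 control samples (log2 axis), with lines at the group means. For 9 genes the samples of both groups lie close to the control mean, and Cdkn1c alone spreads widely, with its lowest control sample at 0.0459 CPM and its 5 mimic samples at 0.456 to 0.646 CPM.

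The ratio of the highest to the lowest share was larger among the Cip/Kip inhibitors than in the other families. It rests on Cdkn1c, at 1 to 17 counts per sample. Without Cdkn1c, the shares of Cdkn1b and Cdkn1a lay closer together than those of Cdk4 and Cdk6. Cdkn1b made up 73.2% ± 1.56 of the 3 genes Cdkn1a, Cdkn1b and Cdkn1c per length in control samples and 72.8% ± 2.37 in mimic samples, and Cdkn1a made up 26.4% ± 1.66 and 26.4% ± 2.24. Cdkn1c made up 0.408% ± 0.225 and 0.764% ± 0.154.

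Cdkn1b (ENSMUSG00000003031, chr6:134920401-134925513, plus strand), whose product p27 accumulates in cells that leave the cell cycle, was at 108 to 123 CPM in control samples, with a median of 116. The mimic samples had 125.5, 114, 112, 105 and 133 CPM. Mimic replicates 1 and 5 were above the control range, mimic replicate 4 was below it, and the remaining 2 were inside. The log2 fold change was 0.038 (SE 0.058, 95% interval -0.088 to 0.16, adjusted p = 0.842), and without mimic replicate 5 it was -0.0064.

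Cdkn1c (ENSMUSG00000037664, chr7:143458339-143461050, minus strand) encodes p57 and is an imprinted gene expressed from the maternal copy. It had the largest fold change of the 10 genes and the fewest counts. The control samples held 12, 9, 1, 6, 9 and 7 counts, and the mimic samples 9, 17, 9, 16 and 11. Scaled for depth these were 0.252, 0.392, 0.0459, 0.208, 0.525 and 0.301 CPM in control samples, against 0.456, 0.646, 0.487, 0.637 and 0.521 CPM in mimic samples. Control replicate 5 reached into the mimic range, so the groups overlapped, and control replicate 3 with its single count was the lowest.

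The mean of Cdkn1c was 0.287 ± 0.163 CPM in control samples against 0.549 ± 0.0872 CPM with the mimic. On the log2 scale the fold change was 1.02 (SE 0.30, 95% interval 0.40 to 1.64), with an unadjusted p of 0.00237 and an adjusted p of 0.0653 in edgeR. DESeq2 gave an unadjusted p of 0.00508 and no adjusted p, because its own filter on low counts set the gene aside. The pooled counts were 44 in control and 62 in mimic samples, a ratio scaled for depth of 2.06 (exact 95% interval 1.37 to 3.10, counting error only). Cdkn1c was called without any count filter (adjusted p = 0.0371) and without control replicate 5 (adjusted p = 0.0391), and over the 18 alternatives that gave an adjusted p the highest was 0.180, without mimic replicate 2. The difference did not pass the test. An antisense transcript, Gm44732, lies within the gene and its reads cannot be told apart from those of Cdkn1c.

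Markers of mural cells and fibroblasts, which line vessels and the meninges, had a higher pooled sum in the mimic samples. Their summed level over 10 genes was 269 to 403 CPM in control samples and 415 to 549 CPM in mimic samples, with 8 of the 10 above 0 in log2 fold change, a median of 0.42, and 2 called, Hic1 higher (log2 fold change 0.58) and Rgs5 lower (-0.66). DESeq2 called 5 of the 10, among them Col1a1 (adjusted p = 0.0187), Col1a2 (0.00156) and Col3a1 (0.0283), all higher. The call of Rgs5 was lost without control replicate 1 (adjusted p = 0.0683) or mimic replicate 2 (0.0758), 4 (0.0724) or 5 (0.0611). Endothelial markers summed to 33.7 to 41.7 CPM in control samples and to 34.7 to 43.6 CPM in mimic samples, and 1 of the 5 tested was called, Cdh5, which was higher. The part of these cells in the levels of Cdkn1c was not tested.

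The tested genes most like Cdkn1c in their course over the 11 samples were Lrrc17, Gypc, 4930579G24Rik, Mnd1 and Ccdc18. Likeness was the root mean square difference of log2 CPM after centring each gene on its own mean, over the 13928 genes whose mean reached 1 CPM. It was 0.473 for Lrrc17 and 0.493 for Ccdc18, against a median of 0.712 over all these genes. The spread of Cdkn1c around its own mean was 0.705 on the same scale. In edgeR Lrrc17 and Gypc were called higher (adjusted p = 0.012 and 0.0062). 4930579G24Rik, Mnd1 and Ccdc18 were not called (0.15, 0.62 and 0.50). Cdkn1c had 1 to 17 counts per sample, so the course that was matched carries a large counting error.

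**Figure D3:**
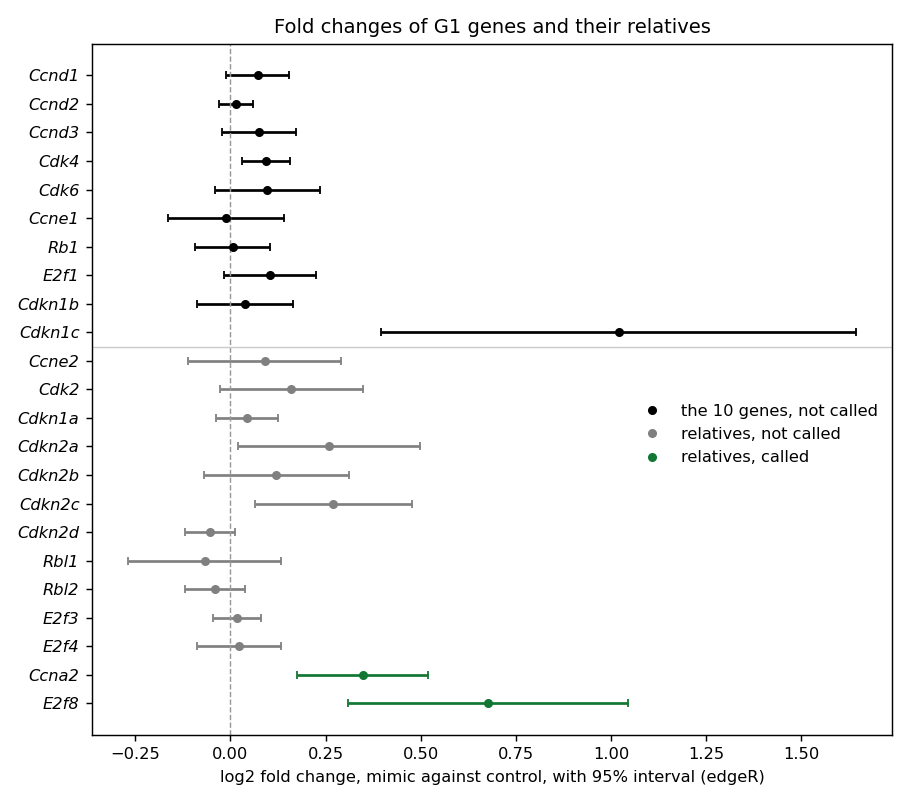
Log2 fold change of mimic against control samples with its 95% interval (edgeR) for the 10 genes (black) and for their closest relatives, grey where not called and green where called. The intervals of 8 of the 10 genes include 0, those of Cdk4 and Cdkn1c do not, and among the relatives Ccna2 and E2f8 were called.

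The closest relatives of the 10 genes were read from the same fit. Among 35 other regulators of the G1/S step, 2 were called, both higher, against 2.85% of all tested genes in either direction and 1.08% in the higher one, 20 had a log2 fold change above 0, and the median was 0.017. Their summed level was 915 to 937 CPM in control samples and 919 to 932 CPM in mimic samples. The number called depended on single samples. It was 0 without control replicate 1 or mimic replicate 2, and 1 without control replicate 2, 5 or 6 or mimic replicate 3, 4 or 5.

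Ccna2, the A-type cyclin of S phase and mitosis, rose from 5.82 ± 0.767 to 7.37 ± 0.654 CPM. Its log2 fold change was 0.35 (SE 0.084, adjusted p = 0.0203), with 5 of 5 mimic samples above the control median and 3 above the control range. The adjusted p was 0.0683 without control replicate 1 and 0.0860 without mimic replicate 2. E2f8, an E2F factor that represses transcription, rose from 0.870 ± 0.112 to 1.39 ± 0.370 CPM, with a log2 fold change of 0.68 (SE 0.18, adjusted p = 0.0352). Its call was lost in 8 of the 11 fits without 1 sample, all but those without control replicate 3 or 4 or mimic replicate 1, with adjusted p up to 0.114, and over all 20 alternatives it was called in 9.

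The remaining relatives were not called. Ccne2, the other E-type cyclin, had a log2 fold change of 0.090 (adjusted p = 0.753), and Cdk2, the kinase that cyclins E and A share, 0.16 (adjusted p = 0.422). The pocket protein genes Rbl1 and Rbl2 had -0.067 (adjusted p = 0.846) and -0.041 (adjusted p = 0.699). E2f3, a further activating E2F factor, had 0.017 (adjusted p = 0.864), and E2f4, which acts mainly in repression, 0.022 (adjusted p = 0.906). With 1 sample left out, Ccne2 ran from 0.013 (without mimic replicate 5) to 0.17 (without control replicate 2). Over the same fits Cdk2 ran from 0.10 to 0.21 and Rbl1 from -0.13 to -0.022, and none of them was called.
The inhibitor gene Cdkn1a, which encodes p21, averaged 32.2 ± 1.43 CPM without and 33.2 ± 1.40 CPM with the mimic (log2 fold change 0.043, adjusted p = 0.696). Of the INK4 inhibitors, Cdkn2d was the most abundant, at 53.8 ± 1.06 and 51.9 ± 1.91 CPM (log2 fold change -0.053, adjusted p = 0.464). Cdkn2c was at 3.74 ± 0.395 and 4.51 ± 0.651 CPM (log2 fold change 0.27, adjusted p = 0.159), Cdkn2a at 2.11 ± 0.256 and 2.56 ± 0.240 CPM (0.26, adjusted p = 0.272), and Cdkn2b at 5.74 ± 0.839 and 6.30 ± 0.791 CPM (0.12, adjusted p = 0.606).

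Genes that E2F factors are known to turn on for S phase were then counted in the same way. Of 24 tested, 24 had a log2 fold change above 0, against 49.9% of all tested genes, and the median was 0.21. Of the 24, 7 were called, all higher, against 1.08% of all tested genes. This and the other lists were chosen with earlier results of these data known. The summed level of the 24 genes was 186 to 198 CPM in control samples. It was 212, 218, 214, 222 and 217 CPM in mimic samples, so the groups did not overlap. Over the same samples the summed level of the 10 G1 genes was 857 to 867 CPM in control samples and 857 to 906 CPM in mimic samples. Of the mimic samples 4 lay above the control range, and mimic replicate 4, at 856.6 CPM, lay inside it. Whether the lists differ was not tested.

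Mcm3, a subunit of the helicase that opens replication origins, rose from 8.54 ± 0.621 to 10.2 ± 0.459 CPM, with all mimic samples above the control range (log2 fold change 0.26, SE 0.062, adjusted p = 0.0203). Rrm2, a subunit of ribonucleotide reductase, rose from 8.32 ± 0.848 to 10.3 ± 0.962 CPM (log2 fold change 0.33, SE 0.073, adjusted p = 0.0123). Uhrf1, which helps to copy DNA methylation, rose from 5.13 ± 0.651 to 6.49 ± 0.345 CPM (log2 fold change 0.34, SE 0.082, adjusted p = 0.0221). Mcm6, Lig1 and Mcm7 were also called with all samples, and in 5, 4 and 3 of the 11 fits without 1 sample, in no case without control replicate 1 or mimic replicate 2 or 4. The number called was 1 without control replicate 1, the deepest sample, 2 without mimic replicate 2 or 4, and 4 without control replicate 3 or 4. Mcm3 was called in 18 of the 20 alternatives, and of the fits without 1 sample it was not called without mimic replicate 4 (adjusted p = 0.0542). Rrm2 was not called without control replicate 1 (0.0534) or mimic replicate 2 (0.0572), and Uhrf1 without control replicate 1 (0.0774) or mimic replicate 4 (0.0748).

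Mitotic genes, which mark cells that divide, lay further from 0. All 16 had a log2 fold change above 0, against 49.9% of all tested genes, and the median was 0.36. Of the 16, 6 were called, all higher, against 1.08% of all tested genes. The summed level of the 16 genes was 82.7 to 93.3 CPM in control samples. It was 97.6, 114, 105, 108 and 117 CPM in mimic samples, again without overlap. Top2a, a topoisomerase of dividing cells, rose 1.30-fold to 25.9 ± 1.76 CPM (log2 fold change 0.38, SE 0.062, adjusted p = 0.00188). Cenpa, the histone of centromeres, rose from 2.44 ± 0.137 to 3.62 ± 0.298 CPM (log2 fold change 0.57, SE 0.099, adjusted p = 0.00178). Bub1b and Tpx2 rose as well, and these 4 were called in each of the 20 alternatives. Cdk1 and Bub1 completed the called genes. Cdk1 was not called without control replicate 1 (adjusted p = 0.0890) or mimic replicate 2 (0.0742) or 5 (0.0540), nor Bub1 without control replicate 1 or 2 or mimic replicate 2, 4 or 5, with adjusted p up to 0.122, and 10 of the 16 were called without mimic replicate 1.

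**Figure D4:**
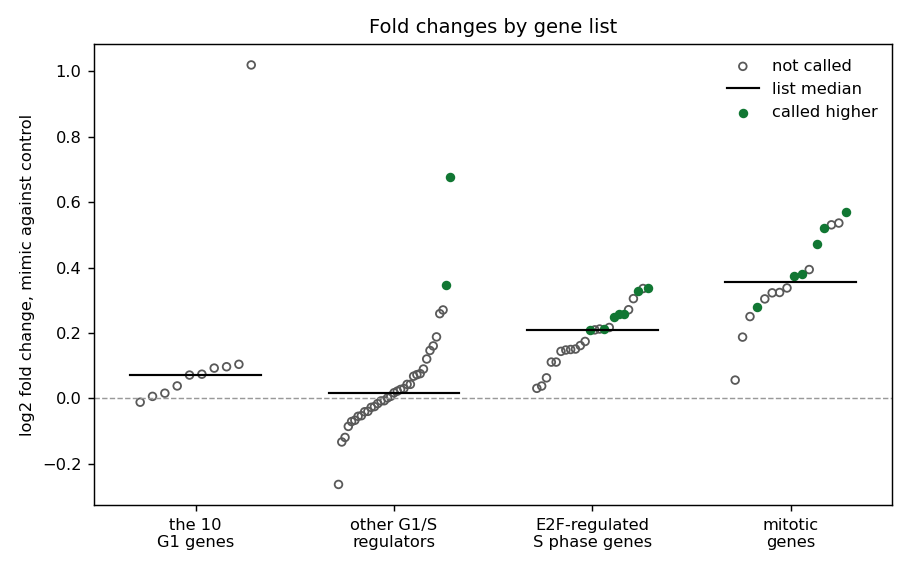
Log2 fold change of every tested gene in 4 lists, ordered within each list, with filled green points for genes called higher and a line at the list median. The medians are 0.073 for the 10 G1 genes, 0.017 for 35 other G1/S regulators, 0.21 for 24 S phase genes and 0.36 for 16 mitotic genes.

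Markers of the other cells in the dish are given beside these counts. Over all tested genes 1.77% were called lower and 1.08% higher. Neuron markers summed to 10160 to 10370 CPM in control samples and to 9772 to 10030 CPM in mimic samples, with 2 of 10 called lower, Slc17a7 and Camk2a. Without 1 sample Slc17a7 was called in 8 of the 11 fits (not without control replicate 1 or mimic replicate 2 or 4) and Camk2a in 4, those without control replicate 2 or 6 or mimic replicate 1 or 3. Astrocyte markers summed to 4511 to 4890 CPM in control samples and to 4148 to 4396 CPM in mimic samples, with 1 of 8 called lower, Slc1a2. Progenitor markers summed to 709 to 779 CPM in control samples and to 673 to 756 CPM in mimic samples, and 0 of the 9 tested were called.
Markers of the oligodendrocyte lineage summed to 315 to 381 CPM in control samples and to 288 to 331 CPM in mimic samples, and edgeR called 0 of 8 (3 at an unadjusted p under 0.05, all lower) and DESeq2 1, Olig1, which was lower (adjusted p = 0.0437). Those of microglia summed to 14.1 to 14.9 CPM and 13.5 to 14.9 CPM, and 0 of the 7 tested were called. The part of these cells and of the mural and fibroblast markers in the S phase and mitotic genes was not tested.

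Promoters were searched for the E2F words TTTCCCGC, TTTCGCGC, TTTGCCGC and TTTGGCGC on both strands, in the RefSeq windows of GRCm38.p6 around gene starts. Of the 27025 genes with such a window, 704 held at least 1 of the words (2.60%). Of the 10 G1 genes, 6 had a window and 0 of these held a word, among them E2f1 and Ccne1. Of the other G1/S regulators 10 of 28 held one (35.7%), of the S phase genes 9 of 20 (45.0%) and of the mitotic genes 1 of 13 (7.69%). The S phase genes were listed because E2F factors are known to turn them on, so their share is partly built in. For the G1 genes, 6 windows are too few to set them apart from all genes. No match says only that these letters are not in the window. Ccnd1, Ccnd2, Rb1 and Cdkn1c had no window.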

How the data were processed

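RNA of 5 mimic and 6 control samples was sequenced. According to the submitters' notes and the study's methods, the authors checked reads with FastQC 0.11.5, mapped them to mm10 (GRCm38) with STAR 2.5.2b and counted them per gene with featureCounts (Subread 1.5.1). The deposited values are raw counts per Ensembl gene and sample. The annotation release, the strand setting and the handling of reads with several map positions are not given in the sources used here, which leaves counts of overlapping or repeated genes uncertain. A second deposited table holds normalized signal, the counts times 1 factor per sample, which served as an alternative only.

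Of 48709 genes, 48349 matched GENCODE M21, which gave symbols, positions, exon lengths and 3′ UTRs. No row lacked a gene and no column lacked a sample. A gene entered the test when 50% or more of the samples held 5 or more counts, which left 17365, tested with edgeR 4.0.16 (R 4.3.3): TMM factors, robust quasi-likelihood fit, group as the only term, two-sided, Benjamini-Hochberg adjustment over all genes tested, called at an adjusted p under 0.05. The study used DESeq2, run here as an alternative (1.42.0) with other scalings, filters and pseudocounts (limma 3.58.1), each sample left out, and a replicate block. Standard errors and 95% intervals come from the test's F value. Total counts were 17287168 to 48091231 per sample. Intervals on counts cover counting error only. The scripts were tested on simulated data.

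The 10 genes and the other lists were chosen with earlier results of these data known. Named genes were all 10, the called genes of every other list (at most 8 a list), the nearest relatives whatever their values, and the 5 genes most like the member with the smallest p. Map2, Tubb3, Cldn5, Ly6c1, Kdr, Olig1, Col1a1, Col1a2 and Col3a1 were named beyond this rule, after their values were seen, as examples of markers. Of the called S phase genes, 1 is not reported here by name.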

Additional observations from a re-analysis of the deposited data

Results flagged for a closer look

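Outlying samples were looked for in 28 series of values, each the level of a gene or the summed level of a list in the samples of 1 group, of which chance would flag about 1.4 (1 in 20). 1 was flagged. In the control samples, the log2 summed CPM of the 35 other G1/S regulators was 9.84 in control replicate 5, the shallowest sample, against 9.86 in the nearest and 9.87 in the farthest of the other control samples, so that the gap to the nearest took 0.751 of the whole range. On the linear scale this is 915 CPM against 931 to 937 CPM. None of the 10 G1 genes had an outlying sample by this measure.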

How the results depend on the processing

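The count of the 10 G1 genes called was 0 under 17 of 20 alternatives and 1 (higher) under 3: without a count filter and without control replicate 5 (Cdkn1c), and without mimic replicate 1 (Cdk4), so it ranged from 0 to 1 when single samples were left out, and the number called higher likewise. Of 198 fold changes of these genes under alternatives, 186 kept direction and side of the threshold, 3 passed it and 9 turned sign, all 9 with 1 sample left out. Over those fits Ccne1 ran from -0.037 to 0.021, Rb1 from -0.043 to 0.042, Cdkn1b from -0.0064 to 0.082 and, among the relatives, E2f4 from -0.0066 to 0.057. Cdkn1c could not be fitted with at least 10 counts in at least 5 samples. On the scale of log2(CPM + 0.5) and log2(CPM + 2) its difference was 0.44 and 0.16, where the pseudocount exceeds most of its values. Between 7 (without mimic replicate 5) and 10 of the 10 genes were above 0.

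Over all genes, 785 were called without a count filter (genes called lower 485, genes called higher 300), where 31595 genes were tested, and 328 with the replicate block (154 lower). With 1 sample left out the number was 218 to 491 (141 to 295 lower, 68 to 229 higher), lowest without control replicate 1 (218) and mimic replicates 2 (237) and 4 (278). With upper-quartile factors 49.1% of the calls were lower, against 62.0% in the main result, and the median of all genes shifted by 0.011. The cause was not tested. Of the other G1/S regulators 0 to 2 were called with 1 sample left out and 1 under the replicate block, the authors' table and log2(CPM + 0.5). Of the S phase genes 1 to 7 were called with 1 sample left out, 3 with the replicate block, and 4 each with the authors' table, log2(CPM + 0.5) and log2(CPM + 2). Of the mitotic genes 4 to 10 were called with 1 sample left out. The label numbers did not pair the samples. Deviations of same-numbered samples correlated at -0.023 to 0.016 over 5 pairs, against -0.073 to 0.078 over the 25 other pairs, and the block used numbers 1 to 5 without control replicate 6. Depth limits Cdkn1c most, at 1 to 17 counts per sample.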
